A study of Mus musculus with 6 samples.

Results

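The 6 genes examined were Pecam1, Cd34, Ptprc, Lyve1 and Pdpn, which encode the antigens used to sort lung endothelial cells (EC), and Prox1, the transcription factor that specifies lymphatic EC. The rule takes the antigens named in the sorting scheme and adds Prox1, and no measured value enters it. Of the 6, 5 were analysed, among 12623 genes in the table, and Prox1 (chromosome 1, 190118035 to 190170827, GRCm38.p6) was not analysed here. All lungs came from C57BL/6N mice, 3 libraries from infant and 3 from young adult animals, and carried no transgene or treatment. According to the study's methods, the infant mice were in the second week of life, the mice of the study were female, and collagenase-digested lungs were stained for PDPN, LYVE1, PTPRC and the erythroid antigen LY76, depleted of stained cells with magnetic beads, and then sorted by flow cytometry for living CD31+CD34+ cells. The series describes the libraries of each age as independent biological replicates, and the number of mice behind each library is not given in the sources used here.

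CD31, the product of Pecam1, is an adhesion receptor at the contacts between EC, and CD34 is a heavily glycosylated sialomucin on the luminal face of capillary EC and on blood progenitors. CD45, encoded by Ptprc, is a tyrosine phosphatase found on nearly all nucleated blood cells and is the usual antigen for removing them. LYVE1 is a hyaluronan receptor and podoplanin, encoded by Pdpn, is a sialoglycoprotein that binds CLEC-2 on platelets, and both are used with PROX1 to tell lymphatic from blood vessel EC. None of these antigens is private to 1 cell type, since LYVE1 is also found on some macrophages and blood EC, podoplanin on alveolar type 1 cells, fibroblasts and mesothelium, and CD34 on fibroblasts.

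Lyve1, whose product was used to discard cells, was among the abundant transcripts of the sorted EC. It was higher in young adult than in infant EC, 2.97-fold by mean RPKM. These are transcript levels, and the antigens as surface proteins were not analysed here. The study checked the purity of its sort by qPCR of marker genes. RPKM is the number of reads per kilobase of transcript, relative to all mapped reads of a library, so levels can be compared between genes of different length. Ptprc, the other discard antigen with a called difference, was lower in young adult EC, at 0.211 of the infant mean. Of the antigens that were sorted for, Pecam1 had a higher mean in young adult EC (ratio of means 1.57) and Cd34 a lower mean (0.647), and neither was called. A gene was called when limma gave an adjusted p (Benjamini-Hochberg over 12458 tested genes) under 0.05 together with a log2 fold change beyond 0.81 in either direction on the log2(RPKM + 1) scale, the fold threshold of the study. Of the 5 antigen genes 2 were called, 1 in each direction, against 11.4% of all genes tested, 3.33% being called higher and 8.1% called lower in young adult EC. The infant and the young adult values did not overlap for any of the 5 genes, which also held for 43.4% of all genes tested.

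**Figure D1:**
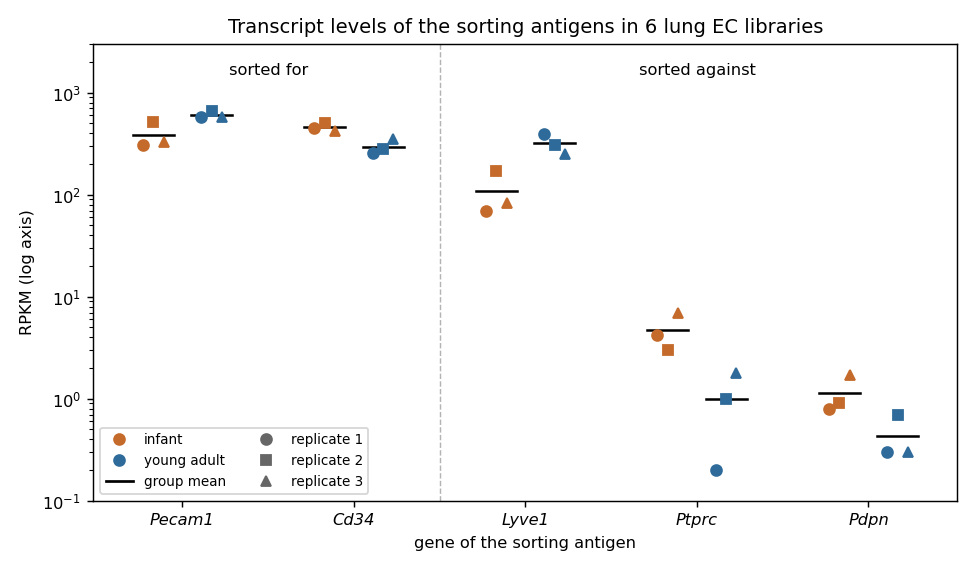
RPKM (log axis) of the 5 sorting antigen genes in 3 infant (orange) and 3 young adult (blue) libraries, with the marker shape giving the replicate number and the bar the group mean. Lyve1 sits between 68.6 and 396.4 RPKM, near the sorted-for genes Pecam1 and Cd34 and far above Ptprc and Pdpn, and infant replicate 2 is the infant library nearest the young adult level for Pecam1 and Lyve1.

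The libraries differed in ways that touch every value below. Although the mice are described as female, Y-linked transcripts were present in all infant libraries and listed at 0 in all young adult ones, with Ddx3y at 20.6, 16.5 and 21.9 RPKM and Eif2s3y at 15.1, 19.3 and 17.1 RPKM in infant replicates 1 to 3. Xist, the transcript of the inactive X chromosome, was found in all 6 libraries, at 7.6 to 8.7 RPKM in infant and 12.5 to 15.6 RPKM in young adult EC. Age and the sex of the animals therefore cannot be told apart in these libraries. The 4 globin genes took 3.41 to 23.5% of the summed RPKM in infant and 0.307 to 0.487% in young adult libraries, and infant replicate 2 stood apart from the other infant libraries on the first principal component (-12.4 against -48.8 and -48.3, with young adult libraries at 33.3 to 41.7). The number of reads per library is unknown. These are bulk libraries, so fewer cells of a type and less RNA per cell cannot be told apart.

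Pecam1 (NM_008816, chromosome 11, 106654213 to 106715281) was measured at 309.8, 512.6 and 330.4 RPKM in infant EC and at 573.7, 657.8 and 581.2 RPKM in young adult EC, each time in the order of replicates 1, 2 and 3, which is also the order below. Every young adult library lay above every infant library, and infant replicate 2 lay closer to the young adult libraries than to the other infant ones. The means were 384 ± 112 and 604 ± 46.5 RPKM (SD, n = 3 each). The log2 fold change of 0.69 ± 0.21 (SE) had an adjusted p of 0.0513 in limma, so Pecam1 met neither threshold and was not called. It was not called under any other setting that kept all libraries. There the adjusted limma p ran from 0.0404 (rescaled to the median of shared genes) to 0.167 (rescaled to the endothelial genes). Without infant replicate 2 the log2 fold change was 0.91 with an adjusted limma p of 0.00139, which is a call. Ranked by RPKM among the 12623 genes of each library, Pecam1 was between place 46 and place 75 in infant and between place 34 and place 47 in young adult EC.

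The table held 2 rows for Pecam1, 1 for each of its RefSeq transcripts, which differ in whether they keep exon 14. This exon encodes part of the cytoplasmic tail of CD31, including the second of its tyrosine-based inhibitory motifs, through which CD31 recruits phosphatases. The exon is shown because it is the only coding difference between both rows. It covers chr11:106671742-106671798 on the minus strand (GRCm38), is exon 14 of 15 in NM_008816, and adds 19 codons to give 716 codons in place of 697 in NM_001032378. The capitals mark the codons of the motif with threonine, any residue, tyrosine, any pair of residues and isoleucine.
Pecam1 exon 14: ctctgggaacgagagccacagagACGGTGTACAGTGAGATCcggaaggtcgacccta

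The 2 rows gave almost the same RPKM. The row with exon 14 exceeded the row without it by factors of 1.0032, 1.0051 and 1.0018 in infant replicates 1 to 3 and of 1.0063, 1.0067 and 1.0078 in young adult replicates 1 to 3. The groups did not overlap, also when the rounding of the table to 1 decimal was allowed for (at most 1.0053 in infant and at least 1.0061 in young adult libraries), and the exact two-sided permutation p was 0.1, the smallest that 3 against 3 libraries can give. This ratio was computed after the values had been seen. How reads common to both transcripts were assigned is not given in the sources used here, so the rows do not give the level of each isoform.

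Cd34 (NM_133654, chromosome 1, 194938821 to 194961292) reached 449.4, 500.6 and 422.7 RPKM in the infant libraries, compared with 254.4, 278.3 and 354.8 RPKM in the young adult ones. All infant libraries lay above all young adult libraries, which is the opposite order to Pecam1, and the infant values spread less around their mean (458 ± 39.6 RPKM) than those of Pecam1. The young adult mean was 296 ± 52.4 RPKM. The log2 fold change was -0.64 ± 0.17 (SE) with an adjusted limma p of 0.0300, and since this is under the fold threshold Cd34 was not called. It was called under quantile normalization of the libraries (-0.85, adjusted p = 0.00498 by limma). In the 6 fits that each left out 1 library, the log2 fold change was -0.78 to -0.54 and Cd34 was not called. The adjusted limma p was under 0.05 in 2 of these 6 fits and reached 0.117 in the others. With a replicate block the adjusted limma p was 0.0553. Cd34 ranked between place 43 and place 47 in infant and between place 87 and place 121 in young adult EC, so its rank was above that of Pecam1 in infant replicates 1 and 3, 1 place below it in infant replicate 2, and below it in every young adult library.

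Cd34 also had 2 rows. The transcript NM_133654 encodes the full-length protein of 382 codons, and NM_001111059, of 325 codons, keeps 156 further bases at the start of exon 8 (chr1:194959780-194959935, plus strand), of which only the first 12 are coding, so that most of the cytoplasmic tail is missing. These 12 bases are shown because they are the whole coding stretch found only in the shorter form, and all are in lower case because no motif is marked.
Cd34 exon 8, coding bases of NM_001111059 only: gagctggaacct

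The full-length row exceeded the other by factors of 1.0393, 1.0401 and 1.0393 in infant and of 1.0371, 1.0361 and 1.0353 in young adult replicates 1 to 3. The infant factors were all the higher ones, opposite to Pecam1, with the same exact permutation p of 0.1, and they too were computed after the values had been seen.

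The ratio of Cd34 to Pecam1 within a library does not depend on how that library was scaled. Cd34 RPKM was 1.45, 0.977 and 1.28 times that of Pecam1 in infant replicates 1 to 3 and 0.443, 0.423 and 0.610 times in young adult replicates 1 to 3. Infant EC thus held about as much Cd34 as Pecam1 transcript per length or more, and young adult EC less, with no overlap. On the log2 scale, with 1 added to each RPKM, the ratio averaged 0.29 ± 0.29 (SD, n = 3) in infant EC, compared with -1.04 ± 0.29 (SD, n = 3) in young adult EC. The difference of -1.32 had an exact two-sided permutation p of 0.1, the smallest possible, and 0.117 after Benjamini-Hochberg adjustment over 7 ratios.

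**Figure D2:**
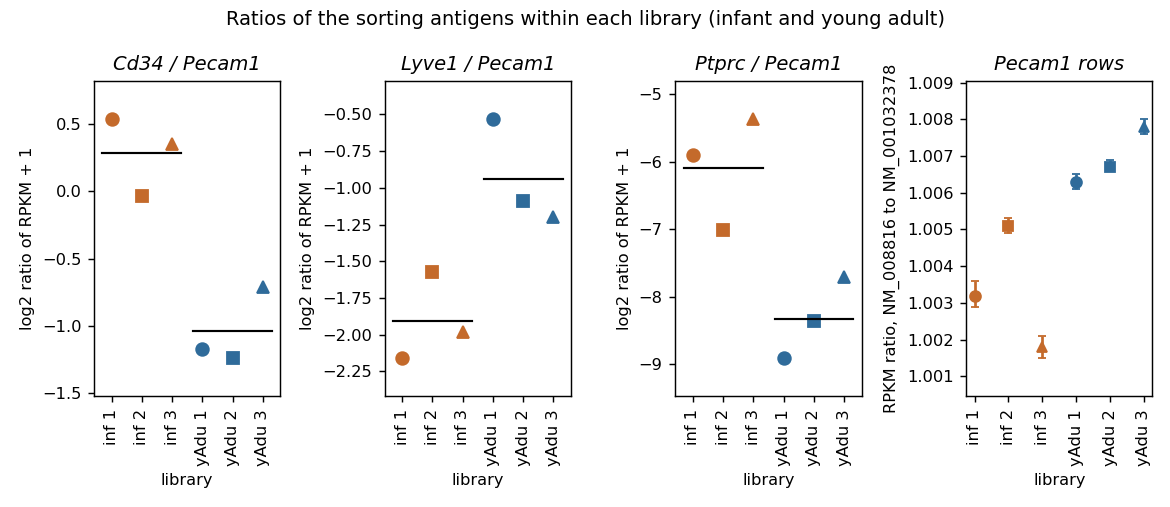
Log2 ratios of Cd34, Lyve1 and Ptprc to Pecam1 (RPKM + 1) and the ratio of the 2 Pecam1 rows, in infant (inf, orange) and young adult (yAdu, blue) replicates 1 to 3. Horizontal lines are group means, bars in the last panel are the limits that rounding allows, and the groups do not overlap in any panel.

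Of the 18 genes that mark EC in general, 18 were measured and 2 were called, both higher in young adult EC, a share near the 11.4% called among all genes tested, while 15 had a positive log2 fold change and the list median was 0.37 against -0.07 over all genes tested. The called genes were Tek, the receptor of the angiopoietins, at 101 ± 17.8 and 245 ± 59.4 RPKM (log2 fold change 1.25), and Clec14a, a C-type lectin of the EC surface, at 110 ± 41.9 and 243 ± 37.5 RPKM (1.19; SD, n = 3 each). Without infant replicate 2, 7 of the genes were called, and without infant replicate 1, young adult replicate 1 or young adult replicate 2 only 1 was. The most abundant, Egfl7, Icam2, Ecscr and Esam, had log2 fold changes of 0.64, 0.65, 0.28 and 0.62 and were not called. Set against the median of these EC genes in each library, Pecam1 had a log2 ratio of 0.98 ± 0.24 in the infant libraries against 1.30 ± 0.10 in the young adult ones, a difference of 0.33 with overlapping groups (exact permutation p = 0.2). For Cd34 the same measure was 1.26 ± 0.06 and 0.27 ± 0.36, a difference of -0.998 without overlap (exact permutation p = 0.1). Every young adult library thus had a lower Cd34 value than every infant library relative both to Pecam1 and to the EC genes.

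Cd34 belongs to a family of sialomucins, of which 4 of 5 listed genes were measured and 0 were called by limma, with 2 at an unadjusted p under 0.05. Its relative Podxl, encoding podocalyxin, had 68.1 ± 12.4 RPKM in infant EC against 95.1 ± 5.17 RPKM in young adult EC, a log2 difference of 0.49 and an adjusted limma p of 0.0400, under the fold threshold. Emcn, encoding the venous and capillary sialomucin endomucin, had a log2 fold change of 0.12, and Cd164 of 0.21. Cd34 was the only 1 of the 4 with a negative log2 fold change.

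Lyve1 (NM_053247, chromosome 7, 110850607 to 110862953) stood at 68.6, 171.4 and 82.7 RPKM in the infant libraries, while the young adult libraries held 396.4, 307.9 and 252.9 RPKM. Infant replicate 2 was the highest infant library and still lay below the lowest young adult one. The means were 108 ± 55.7 and 319 ± 72.4 RPKM (SD, n = 3 each), and the log2 fold change of 1.65 ± 0.33 (SE) had an adjusted limma p of 0.0132, so Lyve1 was called higher. Without young adult replicate 1 the adjusted p was 0.0583 and without young adult replicate 2 it was 0.0584, with log2 fold changes of 1.48 and 1.67, and Lyve1 was then not called. It was called when any of the other 4 libraries was left out, at 2.04 without infant replicate 2.

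In young adult EC Lyve1 stood among the 135 most abundant genes of every library, at places 60, 98 and 135, and in infant EC at places 619, 207 and 525. Per length, Pecam1 had 4.52, 2.99 and 4.0 times the RPKM of Lyve1 in infant replicates 1 to 3, but only 1.45, 2.14 and 2.3 times in young adult replicates 1 to 3. Relative to Pecam1 the log2 difference was 0.97, relative to Cd34 2.29 and relative to the median of the EC genes 1.29, each without overlap between the ages and each with the smallest possible exact permutation p of 0.1 (0.117 over 7 ratios). The higher Lyve1 level of young adult EC was thus present on every within-library scale examined.

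The other genes of lymphatic identity did not follow Lyve1 as a group. Of 24 listed genes, Lyve1 and Pdpn included, 14 were measured, 4 were called higher, 2 were called lower and 8 were not called, beside 3.33% called higher and 8.1% called lower among all genes tested, with a list median of 0.28, and the remaining 10, Prox1 among them, were not analysed here. Besides Lyve1, the genes called higher in young adult EC were Vegfc, the growth factor that drives lymphatic sprouting, from 2.6 ± 0.2 to 7.87 ± 1.78 RPKM, Gata2, a transcription factor needed for lymphatic valves, from 42.9 ± 16.6 to 74.7 ± 11 RPKM, and Fgl2, a fibrinogen-like protein, from 0.867 ± 0.153 to 3.3 ± 0.854 RPKM. Called lower were Nr2f2, encoding the venous and lymphatic transcription factor COUP-TFII, with infant values of 12.7, 3.5 and 14.7 RPKM and young adult values of 3.4, 2.0 and 1.9 RPKM, and Itga9, the integrin chain of lymphatic valves, at 7.4, 1.7 and 9.2 RPKM against 1.0, 1.2 and 0.9 RPKM. For both of these, infant replicate 2 lay near the young adult level and far below the other infant libraries. The part of cells other than EC in the Nr2f2 and Itga9 values was not tested. Only 1 of the list was called with a pseudocount of 5, 3 without infant replicate 1, infant replicate 3 or young adult replicate 3, and 2 when young adult replicate 1 or 2 was left out.

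Several defining lymphatic genes, singled out here after their values had been seen, were low or not called. Flt4, encoding the VEGFC receptor VEGFR3, had 17.8 ± 2.37 and 14.2 ± 0.961 RPKM (log2 fold change -0.30, adjusted p = 0.0996 by limma), with overlapping groups. Mmrn1, a multimerin stored by lymphatic EC and platelets, was at 0.8 to 1.4 RPKM in infant and 0.2 to 0.5 RPKM in young adult EC, and the lymphatic chemokine gene Ccl21a was at 0.1 to 1.3 and 0.2 to 0.3 RPKM. Sox18 and Ackr2, transcribed in blood as well as lymphatic EC, were at 46.6 ± 8.26 and 96.2 ± 14.1 RPKM in young adult EC and had log2 fold changes of 0.15 and 0.41 without a call. Nrp2 and Nfatc1, also named after their values had been seen, were not called but were higher in every young adult than in every infant library. Nrp2 had 0.467 ± 0.115 and 1.03 ± 0.208 RPKM (log2 fold change 0.47). Nfatc1 had 5.7 ± 0.458 and 8.8 ± 2.0 RPKM (0.53). Of the 14 measured genes, 8 had a positive log2 fold change and 6 a negative one. Among these 14 genes Lyve1 had the highest mean RPKM over the 6 libraries.

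LYVE1 is also carried by a class of tissue macrophages. Of 7 listed genes of those cells 2 were measured, Mrc1, the mannose receptor, and F13a1, the coagulation factor XIII subunit, and 0 were called by limma, though both had an unadjusted p under 0.05, and 1 was called without young adult replicate 3. Their summed RPKM was 2.9 to 3.6 in infant and 0.8 to 2.0 in young adult libraries, in the order opposite to that of Lyve1. In young adult EC Mrc1 had 1.07 ± 0.551 RPKM, against 319 RPKM of Lyve1, and in infant EC it had 2.5 ± 0.458 RPKM. The other 5 genes were not analysed here, and the part of macrophage RNA in the Lyve1 values was not tested.

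Of 13 listed genes that bind, make or degrade hyaluronan, the ligand of LYVE1, 9 were measured, 2 were called higher and 4 lower. Among all genes tested 3.33% were called higher and 8.1% lower, and the list median was 0.26 against -0.07 over all genes tested. Hyal2, a membrane-anchored hyaluronidase, was called higher together with Lyve1, with 72.1 ± 12.5 RPKM in infant EC against 161 ± 8.72 RPKM in young adult EC (1.16 on the log2 scale). Stab1, a scavenger receptor that binds hyaluronan, was not called (0.26), nor was Tmem2, a cell-surface hyaluronidase (0.55). Cd44, a hyaluronan receptor that is also a partner of podoplanin, was called lower, with infant values of 33.8, 14.0 and 36.3 RPKM and young adult values of 9.9, 11.1 and 10.1 RPKM (-1.24 ± 0.32, adjusted p = 0.0269 by limma). The genes Hapln1, Hmmr and Has1 were also called lower, each at 5.2 RPKM or less in every library, and were named after their values had been seen. Hmmr and Has1 reached the minimum of 1 RPKM only in infant libraries, where they were high, and with a minimum mean of 1 RPKM 4 genes of the list were called. Of the 6 calls, 3 were left without infant replicate 1, infant replicate 3 or young adult replicate 3, and 2 when young adult replicate 1 or 2 was left out. Leaving aside Hmmr, which passed the filter only through infant libraries, Lyve1 was called higher among the receptors of hyaluronan, Cd44 was called lower and Stab1 was not called.

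Ptprc (NM_011210, chromosome 1, 138062859 to 138175756) gave 4.2, 3.0 and 7.0 RPKM in the infant libraries, compared with 0.2, 1.0 and 1.8 RPKM in the young adult libraries. Its level was low in every library, the groups did not overlap, and the highest value was in infant replicate 3 and the lowest in young adult replicate 1. The means were 4.73 ± 2.05 and 1.0 ± 0.8 RPKM (SD, n = 3 each), with a log2 fold change of -1.54 ± 0.35 (SE) and an adjusted limma p of 0.0182. The call was lost with a pseudocount of 5 (-0.69) and when infant replicate 1, infant replicate 3, young adult replicate 1 or young adult replicate 2 was left out (adjusted limma p 0.0557 to 0.0669, log2 fold changes -1.59 to -1.22). Pecam1 had 47.2 to 171 times the RPKM of Ptprc in infant and 323 to 2869 times in young adult libraries. The 3 rows of Ptprc differed by at most 0.3 RPKM from each other in any library.

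Other leukocyte genes were measured beside Ptprc. Of 23 listed leukocyte genes 20 were measured, 6 were called lower in young adult EC, 0 higher and 14 not, beside 8.1% called lower among all genes tested, 19 had a negative log2 fold change, and the list median was -1.19 against -0.07 over all genes tested. The 6 called were the B cell genes Cd79a, Cd79b and Ms4a1, the general leukocyte genes Cd52 and Cd53, and S100a8 of neutrophils, all named after their values had been seen. S100a8 reached the minimum of 1 RPKM only in infant libraries, where it was high. The count was 2 when infant replicate 1 or 3 was left out, 1 when young adult replicate 2 was, and 0 when young adult replicate 1 was. The summed RPKM of the list overlapped between the ages, with 411.8, 617 and 592.8 in the infant and 181.9, 371.4 and 631.4 in the young adult libraries, and most of it was Lyz2, a lysozyme gene shared by myeloid cells and alveolar type 2 cells, which was not called (358 ± 98.8 and 312 ± 192 RPKM). Lcp1, encoding the actin-bundling protein L-plastin, had 59.5 ± 3.9 and 43.5 ± 5.54 RPKM (log2 fold change -0.45), and Laptm5, a lysosomal membrane protein, and Tyrobp, a signalling adaptor of myeloid cells, had -1.23 and -1.22 without a call. The part of leukocyte RNA in the Ptprc difference was not tested.

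Of 8 genes of CD45 signalling, Ptprc included, 3 were called lower and 5 were not called, beside 8.1% called lower among all genes tested. All 8 had a negative log2 fold change, with a list median of -0.56 against -0.07 over all genes tested. The most abundant, Lyn, a SRC family kinase activated by CD45 and also transcribed in EC, had 83.5 ± 13.2 and 69.9 ± 12.7 RPKM (-0.26). Csk, the kinase that opposes CD45, had -0.02, and Fyn, another SRC family kinase, had -0.57 with an adjusted limma p of 0.00916, under the fold threshold. The other 2 called genes, chosen here after their values had been seen, were Pag1, the membrane anchor of CSK, at 1.93 ± 0.907 and 0.267 ± 0.0577 RPKM, and Ptprcap, a protein bound to CD45, at 1.07 ± 0.208 and 0.133 ± 0.0577 RPKM. Both reached the minimum of 1 RPKM only in infant libraries, where they were high. With a minimum mean of 1 RPKM 2 genes of the list were called and with a pseudocount of 5 0 were. Of the 3 calls, 1 was left without infant replicate 1 or young adult replicate 1 or 2, and 0 without infant replicate 3.

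Pdpn (NM_010329, chromosome 4, 143267409 to 143299564) had the lowest mean of the antigen genes in both age groups, with infant values of 0.8, 0.9 and 1.7 RPKM and young adult values of 0.3, 0.7 and 0.3 RPKM. All infant values lay above all young adult values, but the gap of 0.1 RPKM between infant replicate 1 and young adult replicate 2 is the rounding step of the table. The log2 fold change was -0.56 ± 0.21 (SE) with an adjusted limma p of 0.0815, so Pdpn met neither threshold and was not called. It was tested only because infant replicate 3 reached the minimum of 1 RPKM. Its place among the 12623 genes was between 10439 and 11910 in infant and between 11201 and 11989 in young adult EC, so the ranks overlapped. Podoplanin is also made by alveolar type 1 cells, fibroblasts and mesothelium, and genes of these cells were measured. Of 11 genes of the alveolar epithelium 2 were called, close to the share of 11.4% among all genes tested, Ager, a receptor of type 1 cells, lower (109 ± 11.1 and 44.6 ± 18.1 RPKM) and Hopx, a homeodomain gene named after its values had been seen, higher. Emp2, a membrane protein gene, had a log2 fold change of -0.02 and Clic5, a chloride channel family gene, of 0.29, both without a call, and Sftpc, the surfactant gene of type 2 cells, was at 4333 ± 522 and 3054 ± 1727 RPKM without a call. In this list 9 genes had a negative log2 fold change and 2 a positive one, and 5 had an unadjusted limma p under 0.05. The list median was -0.51 against -0.07 over all genes tested. From the list 0 genes were called without infant replicate 1, infant replicate 3 or young adult replicate 2, and 1 when young adult replicate 1 or 3 was left out.

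In the fibroblast list 11 of 12 genes were measured, 9 were called lower and 1, Ly6a, higher (6 in all without young adult replicate 1). Among all genes tested 8.1% were called lower and 3.33% higher, for comparison with this and with the mesothelial and mural lists below. The collagen genes Col3a1 and Col1a1 gave 482.5, 99.4 and 323.6 RPKM and 305.6, 59.2 and 128.5 RPKM in the infant libraries, where the young adult ranges were 1.3 to 4.3 and 0.6 to 2.0 RPKM. Ly6a, encoding the stem cell antigen SCA-1 and also abundant in EC, had 898 ± 495 and 2549 ± 341 RPKM and had the highest mean of the list. Of 6 mesothelial genes 3 were measured and 2 were called lower, the keratin gene Krt19 and Msln, encoding mesothelin, at 2.4 to 4.5 RPKM in infant and 0 to 0.2 RPKM in young adult EC, with 1 call left without infant replicate 1 or young adult replicate 1 or 2. Of 10 mural cell genes 9 were called lower, among them Acta2, the smooth muscle actin gene, with infant values of 60.8, 17.8 and 74.4 RPKM and a young adult range of 3.2 to 4.3 RPKM. Cspg4, Notch3, Cnn1 and Des, named after their values had been seen, reached the minimum of 1 RPKM only in infant libraries, where they were high. The same held for Msln and for the fibroblast genes Pdgfra, Fbln1 and Tcf21, these 3 also named after their values had been seen. With a minimum mean of 1 RPKM 7 mural genes were called. Cd34 and Pdpn were higher in the infant libraries, which also held more collagen, mural and mesothelial transcript. Among the infant libraries replicate 2 had the highest Cd34, the lowest Col1a1, Col3a1 and Acta2, and the highest Krt19 and Msln and the highest of the fibroblast genes Dcn (19.9 RPKM) and Lum (14.4 RPKM), the last 2 named after their values had been seen. The part of these cells in the Cd34 and Pdpn values was not tested.

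Among all genes tested 3.33% were called higher and 8.1% lower, for comparison with the podoplanin, platelet and erythroid lists that follow. Of 8 partners of podoplanin 8 were measured. Cd9, a tetraspanin that binds podoplanin, was called higher (301 ± 75.2 and 756 ± 30.8 RPKM) and Cd44 lower. In this list 1 call was left without infant replicate 1 or 3 or young adult replicate 1 or 2, and 3 genes were called without infant replicate 2. Moesin and radixin, which link such receptors to actin and are encoded by Msn and Rdx, had log2 fold changes of 0.25 and 0.00. Clec1b, encoding the platelet receptor CLEC-2, chosen here after its values had been seen, had infant values of 1.6, 4.2 and 2.1 RPKM and young adult values of 3.4, 4.9 and 4.2 RPKM, with overlapping groups and no call. Of 9 platelet genes 5 were measured and 0 were called by limma or had an unadjusted p under 0.05, against 2 called without infant replicate 2, and Pf4, the platelet factor 4 gene, was at 1.5 to 7.5 RPKM in infant and 3.6 to 7.0 RPKM in young adult EC. LY76, the remaining discard antigen, marks erythroid cells, and all 7 erythroid genes measured of 11 listed were called lower in young adult EC, with the heme synthesis gene Alas2 having infant values of 72.5, 29.0 and 149.5 RPKM and young adult values of 1.3, 3.6 and 1.6 RPKM.

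**Figure D3:**
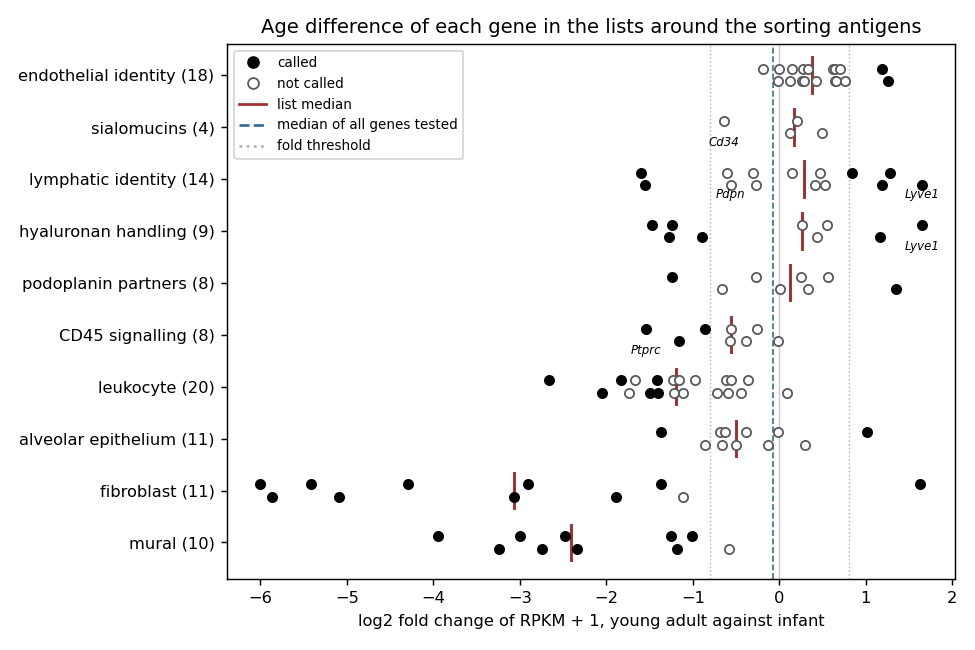
Log2 fold change of RPKM + 1, young adult against infant, of each measured gene in 10 lists (number of genes in brackets), with filled points called and open points not called. Red bars are list medians and the blue dashed line is the median of all genes tested (-0.07). Lyve1 lies at the right end of the lymphatic and hyaluronan lists, and the fibroblast and mural lists lie mostly below -1.

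For each antigen gene, the 3 genes with the most similar profile over the 6 libraries were looked up among 11367 genes with a mean of at least 1 RPKM. Likeness was the root mean square difference of log2(RPKM + 1) after centring each gene on its own mean. Nearest to Pecam1 were LOC101055818 (0.023), Trim14 (0.068) and Tmem100 (0.076), a transmembrane protein gene of lung EC at 701 ± 206 and 1048 ± 72.6 RPKM. Nearest to Cd34 were Kif26b (0.041), Gm16897 (0.044) and Rgs6 (0.067). Nearest to Lyve1 were 9530026P05Rik (0.113), Ctla2b (0.15) and Arl4a (0.157), which all had their highest infant value in replicate 2, as Lyve1 had. Nearest to Ptprc were Ccl3, a myeloid chemokine gene (0.166), Cd53 (0.169) and Hvcn1 (0.17), all low and highest in infant replicate 3. Nearest to Pdpn were Lat2 (0.066), Lrrc48 (0.091) and Ebf1, a B cell and stromal transcription factor gene (0.127). With 6 libraries in 2 groups many genes have similar profiles, so these names are a description only.

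**Figure D4:**
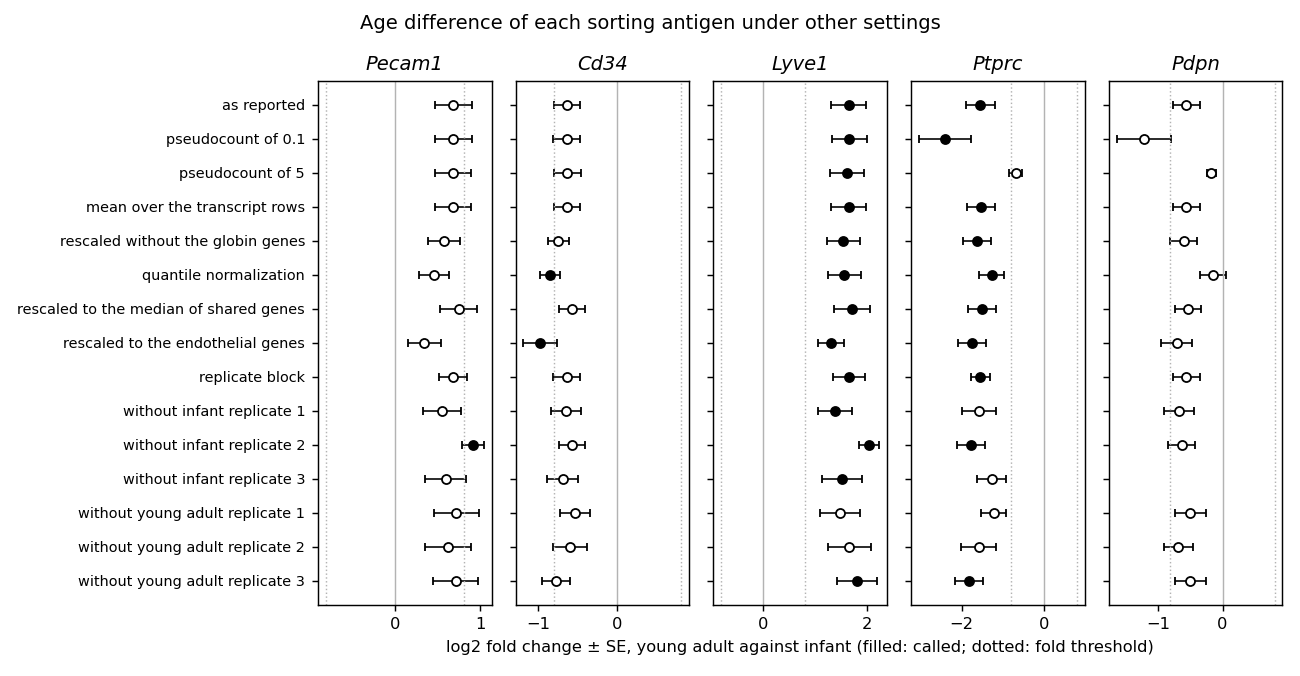
Log2 fold change ± SE, young adult against infant, of the 5 antigen genes as reported, under 8 other settings and without each library in turn (filled points called, open points not called, dotted lines the fold threshold). The direction of each gene is the same in all settings shown, and the calls of Lyve1 and Ptprc are lost in some of the fits that leave out 1 library.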

How the data were processed

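RNA of sorted lung EC was amplified with the SMARTer Ultra Low kit by the authors, sequenced, and aligned to mm10 with STAR, per the labels and the study's methods, which also name DESeq2 for the authors' own test. The deposited values were the authors' RPKM, rounded to 1 decimal, with 17241 transcript rows, 1 column per library and 0 other value columns. The STAR version and the program that gave RPKM are not given in the sources used here. Read counts were not analysed, so depth is unknown and no counting error is attached.

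Symbols turned into dates (24 rows) were restored from their RefSeq accession. For each gene the row with the highest mean RPKM was kept. 12458 genes with at least 1 RPKM in at least 1 library were tested with limma 3.58.1 (R 4.3.3) on log2(RPKM + 1), with an intensity trend and age group as the only term. The pseudocount of 1 understates fold changes of low genes. Ratios within a library were compared by exact two-sided permutation. The script was tested on simulated data.

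The genes and lists were chosen with earlier results of these data known. Named were all antigen genes, the 4 most abundant genes or fewer of each list, every called gene of the endothelial, sialomucin and lymphatic lists, and 3 nearest profiles per antigen. Other genes, such as Flt4, Cd44, Cd79a or Pag1, were named after their values had been seen. Gene positions are from RefSeq GRCm38.p6. Exons were compared between GENCODE models matched to the RefSeq transcripts on GRCm38, the assembly called mm10. Alternatives were pseudocounts of 0.1 and 5, other filters, scalings, variance settings and transcript rows, a fold threshold of 2, a replicate block and leaving out each library. Same-numbered libraries did not deviate together (correlations of deviations 0.03, -0.11 and -0.02), so the numbers were not taken as pairs.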

Additional observations from a re-analysis of the deposited data

How the results depend on the processing

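No direction of an antigen gene was reversed under any alternative, but sizes of low genes moved: Pdpn from -0.56 to -1.22 with a pseudocount of 0.1 and to -0.15 under quantile normalization (adjusted p = 0.618 by limma), and Ptprc from -1.54 to -2.41 with a pseudocount of 0.1. Of the settings that kept all libraries, quantile normalization gave a call of Cd34 (-0.85), and so did rescaling to the median of the 18 endothelial genes (-0.98), an alternative chosen after seeing the data. A pseudocount of 5 lost the call of Ptprc (-0.69), left 578 genes called in place of 1424, and left 1 lymphatic gene called. Leaving out 1 library at a time gave log2 fold changes of 0.55 to 0.91 for Pecam1 (called without infant replicate 2), -1.83 to -1.22 for Ptprc and 1.39 to 2.04 for Lyve1 (each not called in the fits named in the report), and 846 to 1875 called genes, 1 to 7 called endothelial and 2 to 6 called lymphatic genes. For Cd34 these fits gave -0.78 to -0.54 without a call, with an adjusted limma p under 0.05 in 2 of 6. With the replicate block 1371 genes were called, Lyve1 stayed called (1.65, adjusted limma p = 0.0245), 11 in place of 6 leukocyte genes were called, and the Cd34 to Pecam1 ratio had an exact p of 0.25, the smallest that 3 pairs allow. The share of called genes that were higher was 29.1% as reported, 45.5% under quantile normalization and 12.1% after rescaling to the endothelial genes, where the median of all genes tested moved from -0.07 to -0.35. Pdpn was not tested without infant replicate 3 or with a minimum mean of 1 RPKM. Of 252 counts of called genes per list, 200 stayed within 1.5 times the reported count. Without read counts, values under about 1 RPKM, such as Pdpn, rest on few rounding steps.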
